A study of Homo sapiens with 8 samples.

Results

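Long noncoding RNA (lncRNA) genes make transcripts that are not translated, and many of them start next to, or on the opposite strand of, a protein-coding gene. Here, the PML::RARA Cut&Run peaks whose promoter label is the symbol of such a gene were described. They were chosen by the form of the symbol alone. The forms were LINC or LOC followed by a digit, SNHG (snoRNA host gene), and MIR with the ending HG (miRNA host gene). Also taken were the endings -AS (antisense) or -IT (intronic transcript) plus a number, and -DT (divergent transcript). This rule took 210 peaks of 198 genes out of 7169 peaks that carried a gene symbol and 15412 peaks in all. The lncRNA peaks made up 2.93% of the gene-labelled peaks (Wilson 95% interval 2.56 to 3.35) and their genes 3.02% of the 6546 symbols. The other 6959 gene-labelled peaks, of 6348 genes, served for comparison.

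The peaks come from U937-PR9, cells of a monocytic line that carry a transgene for the PML::RARA fusion and express it when given zinc. They had received 100 μM ZnSO4 for 5 h, and the released DNA of 2 replicates with an anti-PML-RARA antibody was reduced by the authors to 1 list of reproducible peaks. Libraries of uninduced cells, which received water, and of an anti-RARA antibody belong to the same series of 8 libraries and were not analysed here, nor were any patient samples. Zinc and the fusion protein come together in these cells and cannot be told apart in 1 list. The sources used here do not say if a listed value stems from a single replicate, their average or their combined reads, and the spread between replicates and the sequencing depth are unknown.

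PML::RARA is the fusion protein of acute promyelocytic leukaemia, in which the front part of the PML protein is joined to the DNA-binding and ligand-binding parts of the retinoic acid receptor RARA. lncRNAs act in several ways: some are scaffolds of nuclear bodies, some host small RNAs in their introns or exons, and others affect the gene beside them through the act of transcription. Divergent and antisense lncRNA genes often use the same nucleosome-free region as their protein-coding neighbour, so that 1 peak can lie at the starts of both genes. In Cut&Run, a nuclease tethered to the antibody releases the DNA around the bound protein, and the midpoint of the interval with the largest signal is called the apex here. Peak height is that largest signal, as inferred from the deposited values, in the units of the peak caller, and peak width is in bp. Positions are given on hg19, with genes from GENCODE release 44 mapped to the same build.

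The apex windows of the highest peak in 4 classes of name are printed to show what these sites look like in sequence. Each window holds 151 bp around the apex and is written on the plus strand, with a match to any of 12 searched motifs in capitals. THUMPD3-AS1 (chr3:9438739-9438889) is the highest of the antisense genes, LINC01003 (chr7:152160908-152161058) of the LINC genes, LOC100652758 (chr5:151151077-151151227) of the LOC genes and SNHG10 (chr14:96001009-96001159) of the snoRNA host genes. Capitals that read CCAAT or ATTGG mark the NF-Y box on the plus or minus strand, GGGCGG or CCGCCC the GC box of SP and KLF factors, and ACTTCC the ETS core on the minus strand.
THUMPD3-AS1: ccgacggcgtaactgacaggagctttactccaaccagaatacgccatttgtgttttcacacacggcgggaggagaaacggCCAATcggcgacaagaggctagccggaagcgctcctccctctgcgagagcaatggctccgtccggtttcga
LINC01003: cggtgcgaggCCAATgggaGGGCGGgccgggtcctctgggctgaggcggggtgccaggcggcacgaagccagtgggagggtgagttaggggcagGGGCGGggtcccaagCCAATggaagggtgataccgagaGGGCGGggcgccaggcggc
LOC100652758: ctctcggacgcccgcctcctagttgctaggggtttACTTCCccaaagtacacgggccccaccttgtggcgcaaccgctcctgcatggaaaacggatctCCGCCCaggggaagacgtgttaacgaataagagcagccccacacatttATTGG
SNHG10: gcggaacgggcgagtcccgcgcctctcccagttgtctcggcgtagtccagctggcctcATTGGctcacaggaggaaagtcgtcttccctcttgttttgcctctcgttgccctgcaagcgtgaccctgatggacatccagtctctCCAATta

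Each of these 4 windows holds an NF-Y box and none the retinoid receptor core AGGTCA, but they were picked by height within their class and do not stand for the rest. In 401 bp around the apex, the NF-Y box was in 43.3% of the lncRNA windows and 44.2% of the other gene-labelled windows. LINC01003 holds GC boxes beside its NF-Y boxes, and LOC100652758 a GC box and an ETS core. These matches are descriptions of the letters and say nothing about which protein was bound there.

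The antisense class was the largest, with 93 peaks of 89 genes, followed by 54 peaks of 48 LINC genes and 44 peaks of 42 LOC genes. Divergent transcripts gave 13 peaks of 13 genes, miRNA host genes 3, SNHG genes 2 and intronic transcripts 1. Of the 198 symbols, 35 (17.7%) are older names in RefSeq. LINC01578 is now CHASERR, LINC00888 is SNHG33, LOC284454 is MIR23AHG and LINC01185 is REL-DT. RefSeq gave 199 of the 210 peaks to a lncRNA, 9 to a transcribed pseudogene and 2 to a protein-coding gene, the latter being LOC93622 (now MRFAP1L2) and LOC100133315 (now XNDC1N). Conversely, 74 of the other gene-labelled peaks carry a symbol of the lncRNA gene type, such as NEAT1 and MALAT1, because their names do not have the form of the rule. Protein-coding genes made up 6681 of the 6915 other peaks whose symbol is in GENCODE.

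In height, the lncRNA peaks and the other promoter peaks had the same median. The median height was 26 for the lncRNA peaks (quartiles 20 and 35, range 16 to 62) and 26 for the others (quartiles 20 and 35, range 13 to 86). The counting interval of the lncRNA median ran from 24 to 28. A height above 26 was reached by 99 of the 210 lncRNA peaks, or 47.1% (40.5 to 53.9), against 48.6% of the other gene-labelled peaks. At the upper end, 14 lncRNA peaks (6.67%, 4.01 to 10.9) were higher than 43, against 10.5% of the others and 8.99% of all peaks. The lowest height among the lncRNA peaks, 16, was shared by 13 of them (6.19%), against 6.05% of the others at 16 or less.

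**Figure D1:**
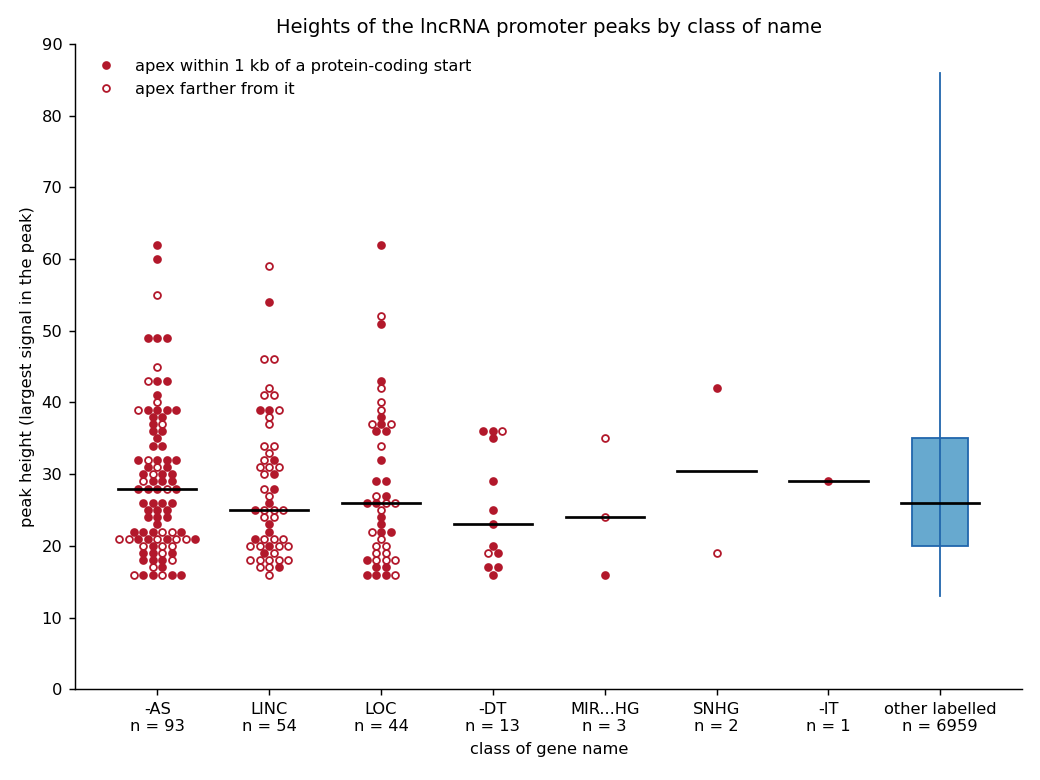
Peak height (largest signal in the peak) of each lncRNA promoter peak by class of gene name, with black lines at the class medians. Filled points have their apex within 1 kb of the start of a protein-coding gene and open points do not; the box and line give the median, quartiles and range of the 6959 other gene-labelled peaks. The class medians lie between 23 and 30.5, beside 26 in the other peaks.

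Among antisense genes, the highest peaks were at THUMPD3-AS1 (height 62), FBXL19-AS1 (60), KMT2E-AS1 (55), MATN1-AS1 (49) and CBR3-AS1 (49). The THUMPD3-AS1 peak, chr3:9437733-9440372, was 2640 bp wide and higher than 99.2% of all peaks. Its gene (ENSG00000206573, minus strand, 9391373 to 9440263) runs antisense across THUMPD3 and starts next to SETD5. The apex was in an intron, 95 bp upstream of 1 of the starts of THUMPD3-AS1 and 485 bp upstream of a start of SETD5, a regulator of chromatin. The FBXL19-AS1 peak lay over the oppositely oriented start of FBXL19, a CpG island-binding protein, with the apex 310 bp upstream of it. The KMT2E-AS1 apex was 1365 bp upstream of KMT2E, a chromatin regulator of the MLL family. Over the whole antisense class the median height was 28, and the median width 1299 bp.

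LINC genes had a median height of 25. Their highest peaks were those of LINC01003 (59), LINC00938 (54), LINC01578 (46), LINC01366 (46) and LINC02453 (42). LINC01003 (ENSG00000261455, plus strand) was 27254 bp from the closest protein-coding start, that of KMT2C, and its apex fell in its own exon, 112 bp past a start. The LINC00938 apex was 820 bp upstream of ARID2, a subunit of a SWI/SNF remodelling complex, and the peak of 4296 bp was the second widest of the 210. LINC01578 is CHASERR, a lncRNA upstream of the remodeller gene CHD2 that is known to restrain CHD2 expression, and the apex was 3647 bp upstream of CHD2. LINC01366 and LINC02453 had their apex 8 bp and 29 bp past a start of their own gene, respectively, and lay 22049 bp and 11749 bp from the closest protein-coding start.

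In the LOC class, LOC100652758 reached 62, LOC284454 52, LOC100506639 51, LOC644656 43 and LOC374443 42. The LOC100652758 apex was 293 bp upstream of G3BP1, which builds stress granules, and that of LOC644656, now ZNF143-AS1, was 173 bp upstream of ZNF143, a promoter-binding transcription factor. The LOC100506639 apex was 310 bp upstream of ZNF131. Among the divergent transcripts, GTSE1-DT and KDM7A-DT reached 36 each, MAN1B1-DT 35 and IL10RB-DT 29. KDM7A encodes a histone demethylase. The intronic transcript was GABPB1-IT1, with a height of 29, 143 bp upstream of its own start and 120 bp past a start of GABPB1, a subunit of the ETS factor GABP.

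The lowest height, 16, was shared by 13 lncRNA peaks, with a total signal (summed over the peak) of up to 8819, at WAC-AS1 (1192 bp wide). Ties were broken by the smallest total, which named LOC91450, HIF1A-AS2, MFF-DT, MRGPRG-AS1 and LOC100506083. These were 270 to 502 bp wide and had a total of 1708 to 3260, low by this choice, against a median total of 10648 for the lncRNA peaks. They are 2 LOC genes, 2 antisense genes and 1 divergent transcript.

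In width, the lncRNA peaks had a median of 1189 bp (quartiles 744 and 1626, counting interval 1074 to 1296) and the others 1106 bp (771 and 1537). Of the lncRNA peaks, 115 (54.8%, 48 to 61.3) were wider than 1106 bp, against 50% of the other gene-labelled peaks. The widest were LINC01137 (4335 bp), LINC00938 (4296 bp), BHLHE40-AS1 (3798 bp), LOC284454 (3645 bp) and LINC00324 (3354 bp). LINC01137, now LITATS1, lies beside ZC3H12A, which encodes the RNase regnase-1 that degrades inflammatory mRNAs, and its apex was 1029 bp upstream of a start of that gene. The BHLHE40-AS1 apex lay 2079 bp upstream of a start of BHLHE40, a bHLH repressor, within an intron of the antisense gene. The peak itself (chr3:5018551-5022348) extended over that BHLHE40 start. Its total signal of 65928 was the largest of the 210.

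A protein-coding start site lay within 1 kb of the apex for 118 of the 210 lncRNA peaks, or 56.2% (49.4 to 62.7), against 92.7% of the other gene-labelled peaks. By class of name, the share was 84.6% of the divergent transcripts (11 of 13), 72% of the antisense genes (67 of 93), 52.3% of the LOC genes (23 of 44) and 25.9% of the LINC genes (14 of 54). Most of the comparison set is labelled with a protein-coding gene whose promoter the apex overlapped, so the share of 92.7% is largely set by the label. The 118 lncRNA peaks near a protein-coding start had a median width of 1416 bp (counting interval 1233 to 1533) and a median height of 26.5, whereas the 92 peaks away from such starts had a median width of 938 bp (767 to 1061) and a median height of 24.5 (21 to 28). The intervals of the widths did not overlap, and those of the heights did. Near and away are judged by the apex alone. Some of the 92 peaks, such as those of BHLHE40-AS1 and KMT2E-AS1, extend over a protein-coding start. Among the other gene-labelled peaks, those near a protein-coding start had a median width of 1123 bp and those away from it, 506 in number, 850 bp, with a height of 26 in both. Of the 14 lncRNA peaks higher than 43, 8 were near a protein-coding start.

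**Figure D2:**
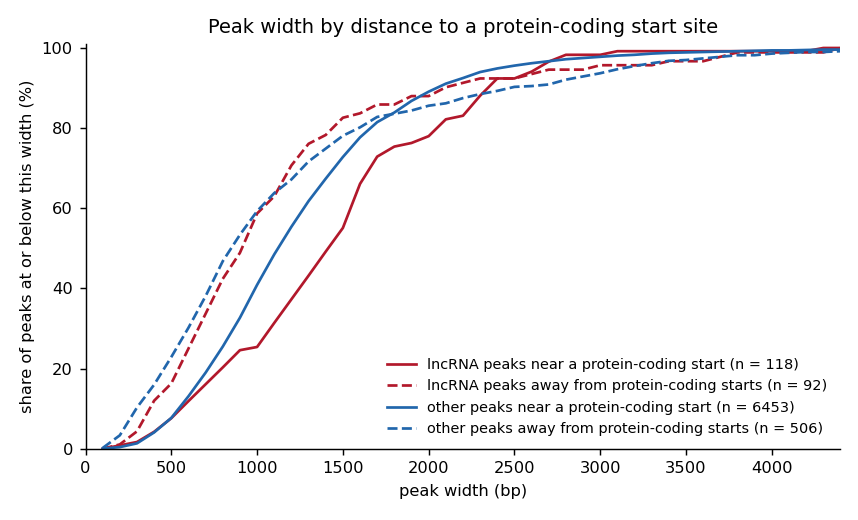
Cumulative share of peaks (%) by peak width (bp), for lncRNA peaks (red) and other gene-labelled peaks (blue) with the apex within 1 kb of the start of a protein-coding gene (solid) or farther away (dashed). The solid red line lies to the right of the others over most of its course, with medians of 1416 bp against 1123 bp for the solid blue line and 938 bp and 850 bp for the dashed red and blue lines.

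The 401 bp around the apex had a median G+C content of 66.8% and a CpG observed-to-expected ratio of 0.867 in the lncRNA peaks near a protein-coding start, and of 59.6% and 0.549 in those away from one. The other gene-labelled peaks gave 64.8% and 0.822 near, and 56.9% and 0.338 away. MIR155HG (54.9%) and MIR181A2HG (47.4%) were among the lncRNA promoters with less G+C.

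The label of a lncRNA peak mostly meant a peak at that gene's start. For 179 of the 210 peaks the symbol could be matched to GENCODE, and 153 of these (85.5%, 79.6 to 89.9) had the apex within 1 kb of a start of their own gene, against 92.4% of the others. A symbol was given where the apex overlapped a promoter, so both shares are largely set by the label. The median signed distance was -39 bp (quartiles -156 and 21.5), where negative is upstream, and -69 bp (-165 and -1) in the others. The apex was upstream of the nearest own start in 67.6% of the lncRNA peaks and in 75.7% of the others. It lay outside the gene in 88 of the 179, in an exon in 58 and in an intron in 33. In 3 peaks the apex was over 5 kb from an own start. They were both peaks labelled DCST1-AS1, at the starts of ADAM15 and EFNA4, and 1 peak of LOC284454.

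**Figure D3:**
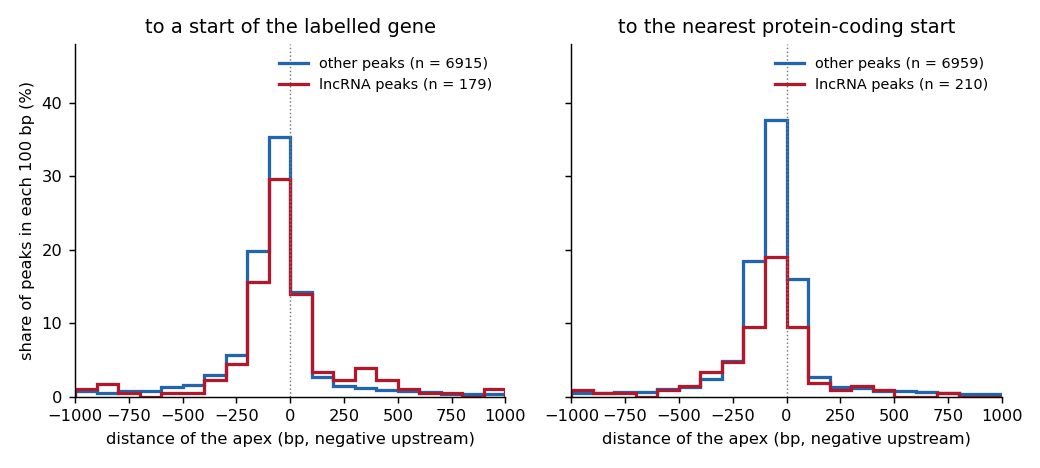
Share of peaks (%) in each 100 bp of distance from the apex to the nearest start of the labelled gene (left) and to the nearest protein-coding start (right), for lncRNA peaks (red) and other gene-labelled peaks (blue); negative distances are upstream. In the 100 bp just upstream of an own start lay 29.6% of the lncRNA peaks and 35.3% of the others, and in the 100 bp just upstream of a protein-coding start 19% and 37.6%.

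A total of 89 peaks had the apex within 1 kb of both an own and a protein-coding start. The starts stood head to head, on opposite strands and pointing apart, in 59 of them (66.3%), with a median of 146 bp between the starts (quartiles 79.5 and 239). In 20 the genes overlapped in antisense, with starts a median of 268 bp apart, and in 10 both genes ran on the same strand. The median height was 26 for the head-to-head pairs, 24 for the overlapping pairs and 28 for those on the same strand. Within the head-to-head pairs the apex lay between the starts in 36 of 59 (61%, 48.3 to 72.4), past the lncRNA start in 12 and past the protein-coding start in 11. It was nearer to the lncRNA start in 37 of 59 (62.7%, 50 to 73.9). Only peaks labelled with the lncRNA were counted, so this share may follow in part from the label. SNHG10 is a head-to-head pair, with the apex 4 bp past the lncRNA start and 303 bp upstream of GLRX5, a mitochondrial glutaredoxin.

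For 108 of the 118 lncRNA peaks near a protein-coding start (91.5%), that protein-coding gene labelled no peak in the list. In the other gene-labelled peaks the nearest protein-coding gene was without a label in 10.2%. Each row carries 1 symbol, so this count follows in part from how a row was labelled. The 108 peaks stood at 105 genes, of which 98 have a gene name and would be missed by a search of the list for that name. The following examples were chosen after their values were seen. The peak at RB1, the retinoblastoma tumour suppressor, is labelled RB1-DT and had a height of 17, with the apex 8 bp past a start of RB1. REL, an NF-κB subunit, stood under a peak labelled LINC01185 (height 22), and BTG2, an antiproliferative gene, under LINC01136 (19). NIPBL, which loads cohesin, had the NIPBL-DT peak (19), and SRCAP, the ATPase of a histone exchange complex, the LOC730183 peak (36). The CCNT2-AS1 peak (49) had its apex 169 bp upstream of CCNT2, a cyclin of the elongation factor P-TEFb. The FGD5-AS1 peak reached 43 over 2085 bp. Its apex was 52 bp upstream of its own start and 156 bp upstream of NR2C2, an orphan nuclear receptor, whereas FGD5 itself was 17713 bp away.

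Of the lncRNA peaks, 107 (51%) are named after a partner gene. The apex lay within 1 kb of a start of the partner in 63 of the 106 whose partner is in GENCODE. The partner labelled a peak of its own in 23 of the 107 (21.5%). In these 23 pairs the lncRNA peak was higher in 10, lower in 11 and equal in 2, and the apexes were a median of 45672 bp apart. In the 5 pairs with the highest lncRNA peaks, heights by label were 62 at THUMPD3-AS1 and 46 at THUMPD3, 45 at MAP3K14-AS1 and 57 at MAP3K14 (the NF-κB-inducing kinase), 41 at ARRDC3-AS1 and 32 at ARRDC3, 39 at ABHD11-AS1 and 33 at ABHD11, and 36 at KDM7A-DT and 16 at KDM7A. These labels do not always name the nearest start. The apex labelled ARRDC3-AS1 was 11 bp upstream of an ARRDC3 start and 181 bp past an own start, and the peak labelled ARRDC3 lay 2341 bp away. The KDM7A-DT apex was 1684 bp upstream of its own start and 1483 bp past a KDM7A start. The peak labelled KDM7A (chr7:139876688-139877598) covered both that KDM7A start and the KDM7A-DT start at 139876984.

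A list of partner genes, drawn up with earlier results of these data known, was looked up among the names. IRF1-AS1 had a height of 26, while the higher of 2 peaks of IRF1, an interferon response factor, had 43 and lay 80228 bp away. HIF1A-AS2 had 16 and HIF1A, the hypoxia factor, 30. MEIS1, a homeobox factor of haematopoietic progenitors, labelled no peak, but the 2 peaks labelled MEIS1-AS3 had their apex 55 bp past a start and exactly at a start of MEIS1, with heights of 16 and 21. No antisense, divergent or intronic transcript named after RUNX1, GATA2, SPI1, CEBPA, CEBPB, BACH2, RARA, RARB or PML, a part of this list, labelled a peak. This look-up was by label only, and peaks at the starts of such transcripts were not sought. Of 2322 peaks within 1 kb of a GENCODE lncRNA start, only 172 carried a label of the naming rule. A missing label is therefore not shown to mean a missing peak.

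A second peak was seen for 12 of the 198 genes (6.06%, 3.5 to 10.3), and no gene had more than 2, against 539 of 6348 other genes (8.49%) with 2 or more. The 2 apexes were 925 to 11799 bp apart, with a median of 1775 bp. LINC01137 had heights of 20 and 34, LINC02026 41 and 19, LOC648987 40 and 21, and LINC00339 21 and 39. In LINC02026 and LOC648987 the higher peak was also the wider, with 1125 bp against 224 bp and 1468 bp against 732 bp, whereas in RNASEH2B-AS1 a peak of height 35 was 429 bp wide and one of height 21 was 1533 bp wide.

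miRNA host genes were represented by MIR181A2HG (height 35, chr9:127420342-127421043), MIR155HG (24, chr21:26933803-26935058) and MIR3936HG (16, chr5:131704963-131705707). MIR181A2HG and MIR155HG had the apex 80 bp and 43 bp upstream of their own start, and the closest protein-coding starts, of NR6A1 and MRPL39, were 62524 bp and 45714 bp away. The MIR3936HG apex was 6 bp upstream of SLC22A5, a carnitine transporter. LOC284454 (MIR23AHG) also hosts miRNAs. It carried 2 peaks inside the gene, with heights of 52 (chr19:13946442-13948320) and 34 (chr19:13949400-13953044), and the apex of the higher one was 543 bp past the start of MIR27A. The mature miRNAs these genes encode, from RefSeq, are shown because they are the product of the loci bound. Capitals mark the seed, bases 2 to 8, and the arms printed were chosen after the values were seen.
hsa-miR-155-5p: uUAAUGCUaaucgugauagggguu
hsa-miR-181a-5p: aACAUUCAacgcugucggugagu
hsa-miR-181b-5p: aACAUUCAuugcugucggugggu
hsa-miR-23a-3p: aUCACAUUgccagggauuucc
hsa-miR-27a-3p: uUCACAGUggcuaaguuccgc
hsa-miR-24-3p: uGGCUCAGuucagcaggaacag

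The miR-181a-5p and miR-181b-5p of MIR181A2HG share 1 seed, ACAUUCA. The 3 miRNAs of MIR23AHG have different seeds, although those of miR-23a-3p and miR-27a-3p begin with the same letters. miR-155, which acts in inflammation and is made from MIR155HG, has a seed of its own.

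Since the label is 1 symbol per peak, well-known lncRNA genes were also looked up by their start sites in the annotation, from lists drawn up with earlier results of these data known. The list of snoRNA host genes holds 37 names, of which SNHG2 and SNHG13 are older names of GAS5 and DANCR, which it also holds, and SNHG23 and SNHG24 are older names of MEG8. Of the 37 names, 33 are in GENCODE and 24 of these (72.7%, 55.8 to 84.9) had an apex within 1 kb of a start. For comparison, this was so for 12.6% of the 18592 annotated lncRNA genes and 39.3% of the 20111 protein-coding genes. The list was not matched to the other genes in any property, and the shares stand side by side as descriptions. Only 3 of the 24 peaks carried the host's own or older symbol, those of SNHG10 (42), SNHG6 (19) and SNHG33 (LINC00888, 20), and 14 carried the symbol of a snoRNA. The SNHG1 start had a peak of height 49 that is labelled SNORD25. GAS5, which accumulates in growth-arrested cells, had a peak of 40 labelled SNORD74, and SNHG5 one of 40 labelled SNORD50B. ZFAS1 shared a peak of 42 with ZNFX1, and SNHG4 had an unlabelled peak of 41. The 24 heights ran from 16 to 49 with a median of 28. There was no apex within 1 kb of SNHG7, SNHG11, SNHG14, SNHG17, SNHG18, SNHG20, SNHG27, SNHG28 or EPB41L4A-AS1.

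Of 12 listed miRNA host genes, 6 had an apex within 1 kb of a start, and 1 of these peaks, at MIR155HG, carried the host's symbol. MIR22HG had the highest, which reached 60 over 3675 bp, is labelled MIR22 and exceeded 98.9% of all peaks. MIR142HG, the host of a miRNA of blood cells, had a peak of 36 and 3468 bp labelled MIR142, and MIR17HG, the host of the miR-17-92 cluster, one of 24 labelled MIR19B1. MIR210HG had a peak of 20 labelled MIR210, and MIR223HG, the host of a miRNA of the granulocytic lineage, an unlabelled one of 22. MIR181A1HG, MIR4435-2HG, MIR99AHG, MIR100HG, MIR503HG and MIRLET7BHG had none.

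**Figure D4:**
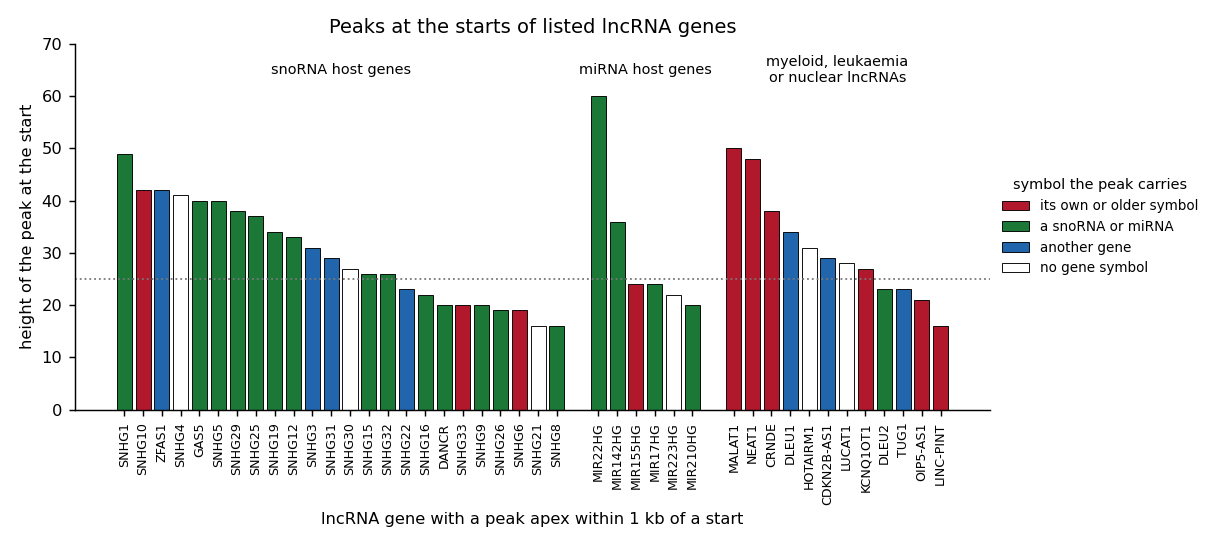
Height of the peak whose apex is nearest to a start, within 1 kb, for the listed lncRNA genes that have one, with the bar colour giving the symbol the peak carries and the dotted line the median height of all peaks (25). The bars for snoRNA hosts run from 49 at SNHG1 to 16 at SNHG8 and SNHG21, and 14 of the 24 carry a snoRNA symbol.

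Of 20 lncRNAs known from myeloid cells, leukaemia or the nucleus, 12 had an apex within 1 kb of a start, with a median height of 28.5. MALAT1, a lncRNA of nuclear speckles, had a peak of height 50 and 2403 bp, and NEAT1, the scaffold of paraspeckles, one of 48 and 3546 bp. CRNDE, a lncRNA raised in several cancers, had 38 and 3060 bp, and KCNQ1OT1, which silences an imprinted cluster, 27. HOTAIRM1, a myeloid lncRNA of the HOXA cluster, had an unlabelled peak of 31 with the apex 9 bp upstream of a start. LUCAT1 had an unlabelled peak of 28, TUG1 a peak of 23 labelled MORC2, CDKN2B-AS1 one of 29 labelled CDKN2A, OIP5-AS1 one of 21 and LINC-PINT one of 16. DLEU2, in a region deleted in chronic lymphocytic leukaemia, labelled peaks of 34 and 31, of which the former lay 23 bp upstream of a DLEU1 start, and the peak nearest to a DLEU2 start is labelled MIR3613 (23). No apex was within 1 kb of HOXA-AS2, HOXA-AS3, HOXB-AS3, CYTOR, MEG3, LINC00173, NORAD or WT1-AS.

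Across the annotation, 2322 of the 15412 peaks (15.1%) had the apex within 1 kb of a GENCODE lncRNA start. Of these, 172 were lncRNA peaks by name, 1457 (62.7%) carried another symbol and 693 had no symbol. The naming rule therefore took only a part of the peaks at GENCODE lncRNA starts, and not all of its 210 peaks stood within 1 kb of one.

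Motifs were searched on both strands in the 401 bp around the apex. The retinoid receptor core AGGTCA was in 34 of the 210 lncRNA windows (16.2%, 11.8 to 21.8), against 16.6% of the other gene-labelled windows and 23.1% of all windows. None of the 210 held a pair of AGGTCA in the same direction 1, 2 or 5 bases apart (0%, Wilson 95% interval up to 1.8% for each spacing), and such pairs were in 5, 0 and 0 of the 6959 others. They were rare in the whole list, with 10, 2 and 7 of 15412 windows. Only exact copies were searched, so pairs with a changed base, another spacing or another orientation were not counted. To show the core in place, 36 bases around it are printed for 3 of the highest peaks that hold it, chosen after the values were seen, on the strand that reads AGGTCA and with the core in capitals. They are LOC284454 (chr19:13946657-13946692, plus strand), LINC01366 (chr5:169758447-169758482, minus strand) and BHLHE40-AS1 (chr3:5018902-5018937, plus strand).
LOC284454: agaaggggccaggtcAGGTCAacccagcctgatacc
LINC01366: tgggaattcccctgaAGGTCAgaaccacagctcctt
BHLHE40-AS1: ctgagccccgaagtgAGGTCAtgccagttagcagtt

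All 3 peaks have their apex over 1 kb from every protein-coding start, although the BHLHE40-AS1 peak extends over a start of BHLHE40. The core was in 22.8% (15.4 to 32.4) of the 92 lncRNA windows away from protein-coding starts and in 11% (6.55 to 17.9) of the 118 near one, with intervals that overlap, against 25.3% and 15.9% in the other gene-labelled windows. A second AGGTCA in the window was seen in 3 lncRNA peaks, LOC284454, BHLHE40-AS1 and PRR7-AS1. In LOC284454 it overlaps the core printed in capitals by 1 base and is part of the printed sequence.

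The RUNX, AP-1 and C/EBP sites had larger shares away from protein-coding starts than near them, in the lncRNA windows and in the others. TGTGGT, the RUNX site, was in 30.4% (22 to 40.5) of the lncRNA windows away from protein-coding starts and in 11.9% (7.2 to 18.9) of those near one, and in 28.5% and 14.3% of the others. TGANTCA, the AP-1 site, was in 21.7% (14.5 to 31.2) and 5.08% (2.35 to 10.7), with 16.8% and 6.51% in the others. TTGCNNAA, a C/EBP site, was in 23.9% (16.4 to 33.6) and 11.9% (7.2 to 18.9), with 18.4% and 9.42% in the others. The GC box and the NRF1 core had the larger share near protein-coding starts. GGGCGG, the GC box, was in 57.6% (47.4 to 67.2) away and 80.5% (72.4 to 86.6) near, with 40.9% and 79.1% in the others, and TGCGCA, the NRF1 core, in 6.52% (3.02 to 13.5) and 19.5% (13.4 to 27.6). Within the lncRNA peaks the intervals near and away did not overlap for the RUNX site, the AP-1 site and the GC box, and overlapped for the C/EBP and NRF1 sites. Over all 210 windows the shares were 20% for TGTGGT, 12.4% for TGANTCA, 17.1% for TTGCNNAA and 70.5% for GGGCGG, against 15.3%, 7.26%, 10.1% and 76.3% in the other gene-labelled windows.

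The remaining motifs were compared over all windows and then away from protein-coding starts. Over all windows, the ETS site CCGGAAGT was in 9.52% and 8.75%, its core GGAAGT, which CCGGAAGT contains, in 34.8% and 36.8%, the NF-Y box CCAAT in 43.3% and 44.2%, the CREB site TGACGTCA in 3.81% and 3.1%, and the YY1 site AAGATGGCG in 2.86% and 4.15%. The E-box CACGTG of MYC and USF was in 8.57% (5.49 to 13.1) and 12.7%. Away from protein-coding starts, CCGGAAGT was in 9.78% (5.23 to 17.6) of the lncRNA windows and 2.37% (1.36 to 4.1) of the others, with intervals that did not overlap, and near them in 9.32% and 9.25%. The YY1 site was in 3.26% (1.12 to 9.15) away and 2.54% near, with 0.593% and 4.43% in the others. The CREB site was in 4.35% (1.7 to 10.7) away and 3.39% near, with 1.19% and 3.25% in the others. The ETS core was in 32.6% away and 36.4% near, with 42.5% and 36.3% in the others, the NF-Y box in 41.3% and 44.9%, with 36.2% and 44.8%, and the E-box in 8.7% and 8.47%, with 11.7% and 12.8%. For each of these 6 the lncRNA intervals near and away overlapped. Base composition moves with these shares, and its part in them was not tested.

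**Figure D5:**
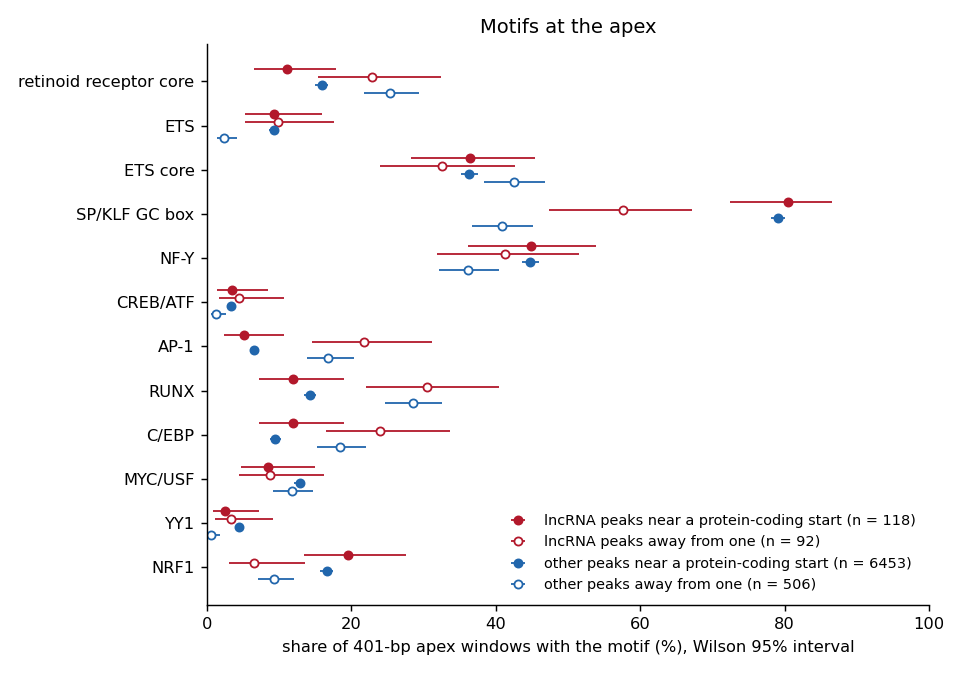
Share of 401-bp apex windows (%) with each searched motif, named by its factor, in lncRNA peaks (red) and other gene-labelled peaks (blue), near a protein-coding start (filled) and away from one (open), with Wilson 95% intervals that cover the counting of peaks. The open points lie to the right of the filled ones for the retinoid receptor core, RUNX, AP-1 and C/EBP, and to the left for the GC box and NRF1, in red and in blue.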

How the data were processed

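The Cut&Run libraries were made from nuclei of U937-PR9 cells. According to the paper's methods, the authors used Trimmomatic for trimming, Bowtie2 for alignment to hg19, Samtools against duplicates and Bedtools against blacklisted regions, called peaks with SEACR in its norm union mode against the paired control, and kept peaks with an IDR under 0.05 over 2 replicates. Versions are not given in the sources used here. The authors deposited a total signal per peak and a score, which is the largest signal and is called height here, in units that may or may not be scaled by the norm mode, and a gene symbol from the UCSC known genes where the apex overlapped a promoter. In all 15412 peaks the total was below height times width, from which these 2 columns were told apart.

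The apex is the midpoint of the interval of largest signal, or its start in 34 peaks without an end, none of them a lncRNA peak. Distances were taken to every transcript start in GENCODE release 44 on GRCh37. Of the 210 lncRNA peaks, 146 were matched by name, 33 by the current RefSeq symbol and 31 not at all, and the last are left out of distances to their own gene. Mature miRNAs come from RefSeq (GRCh38.p14) by host span, and the other sequences from GRCh37. Motifs were searched in 401 bp around the apex.

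Shares have Wilson 95% intervals and medians order-statistic intervals. Both cover the counting of peaks only, and neighbouring peaks are not independent. No test was made, since the list holds no replicate values. Depth is unknown. The members and lists were chosen with earlier results of these data known. Genes were named as the 5 highest of each class, the 5 widest, the 5 lowest, the members of fixed lists and of listed partner genes, and the 5 highest pairs. An item that this rule names is not reported here. Alternatives changed the membership, the merging of neighbours under 1 kb, thresholds on height or width, the unit, the distance, the reference point and the motif window. The distance, motif and interval functions were tested on simulated data with known answers. Python 3.11.15, numpy 2.4.6, pandas 2.3.3, scipy 1.17.1, pysam 0.24.0, matplotlib 3.10.9 and samtools 1.23.1 were used.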

Additional observations from a re-analysis of the deposited data

How the results depend on the processing

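Of 86 alternative values for 21 results, 60 stayed within the interval of the value reported, or within 1.5 times a count. The share of lncRNA peaks above the median height of the others was between 43.5% (away from protein-coding starts) and 50% (wide peaks), and 52.9% were above the others' median of total signal. Among peaks that reached the median height of the list, 117 lncRNA peaks of 114 genes were left, their median width was 1500 bp and 62.4% were wider than the others' median. Among those that reached the median width, the median height was 29.5. The lncRNA share of gene-labelled peaks was 2.33% without LOC symbols and 3.49% by gene type. With only peaks over 1 kb from every protein-coding start, the median width was 938 bp. Counting only the 5′ end of each gene, 44.3% were within 1 kb of a protein-coding start and 76.5% within 1 kb of their own. The own-start share was 78.2% within 500 bp and 93.9% within 2 kb. Motif shares within 100 bp were 9.52% for AGGTCA, 24.3% for GGAAGT, 57.1% for GGGCGG, 26.2% for CCAAT, 8.57% for TGANTCA, 12.4% for TGTGGT, 11.9% for TTGCNNAA and 7.14% for TGCGCA, where fewer bases were searched. Away from protein-coding starts they were 22.8% for AGGTCA, 57.6% for GGGCGG, 21.7% for TGANTCA, 30.4% for TGTGGT, 23.9% for TTGCNNAA and 6.52% for TGCGCA. For the remaining moves the cause was not tested.

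No paired analysis was possible because the listed values are not split by replicate, and for the same reason leaving out a replicate was not done. The depth of the libraries is unknown. The list is the result of a threshold, and a promoter without a listed peak is not shown to be unbound.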

Other observations

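The lncRNA peaks were spread over the autosomes and chromosome X. Their share of the gene-labelled peaks of a chromosome ran from 0.99% on chromosome 17 (5 of 505) to 7.08% on chromosome 13 (8 of 113). Another apex of any kind lay within 5 kb of 49 lncRNA apexes (23.3%, 18.1 to 29.5) and of 21.5% of the other gene-labelled apexes. The median distance to the nearest other apex was 29262 bp for the lncRNA peaks (quartiles 6068 and 75699) and 21343 bp for the others (quartiles 6230 and 61703). The unlabelled peaks of the list, 8243 in number, had a median width of 634 bp, a median height of 23 and a median G+C content of 52.9% around the apex, against 938 bp, 24.5 and 59.6% for the lncRNA peaks away from protein-coding starts.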
